A study of Gallus gallus with 8 samples.

Results

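The 89 genes described here encode the machinery that makes, degrades and reads cyclic AMP, with the G proteins and RGS proteins around it. They are those whose only symbol in the platform annotation begins with ADCY, PDE and a digit, PRKAC, PRKAR, AKAP, GNAI, GNAS, GNAQ, GNB or GNG and a digit, RGS or CREM, of 13009 genes with a symbol. They have 206 probe sets, and each gene is represented by its brightest probe set, taken by the mean of the 8 arrays. The prefixes also bring in genes with other work: PDE12, a mitochondrial enzyme that acts on RNA, PDE4DIP, a scaffold protein named for binding PDE4D, GNB1L, a WD-repeat protein, ADCYAP1 and ADCYAP1R1, the peptide PACAP and its receptor, and CREMP, whose role is not described here. PRKACA, the main catalytic subunit of PKA in many tissues, had no probe set under that symbol alone and was not analysed here.

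Cyclic AMP is made by adenylyl cyclases, which stimulatory G proteins switch on and inhibitory G proteins restrain, and it is broken down by phosphodiesterases. Its main target, protein kinase A (PKA), is a pair of regulatory and a pair of catalytic subunits that A-kinase anchoring proteins (AKAPs) hold at particular places in the cell, and RGS proteins shorten the signal by speeding GTP hydrolysis on G alpha subunits. In the growth plate, parathyroid hormone-related protein acts through a receptor coupled to this pathway and holds chondrocytes back from hypertrophy.

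RNA came from chondrocytes of the chick tibiotarsus growth plate on 8 Affymetrix arrays. Proliferative cells were from 3-week-old chicks and hypertrophic cells from 1-day-old chicks, with 4 arrays each, and the labels name no strain, genotype or treatment. The labels call both kinds of sample pooled isolated cells, so an array does not stand for a bird. Stage and age differ together and cannot be told apart.

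Values are log2 intensities summarised by RMA, and differences are hypertrophic minus proliferative, with the standard error of the limma fit and n = 4 arrays per group. A gene passed where the Benjamini-Hochberg adjusted p over 38439 probe sets was under 0.05. A level of 4.75, the highest of the 8 arrays' 95th percentiles over 744 probe sets with no annotated chicken gene, is called the background level. Where the mean of 1 group was below it, a bound ("at least") is the difference with that group's low arrays raised to the level and the other group as measured. Values of different genes come from different probes and are not compared as levels.

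Of 14 proliferative chondrocyte markers 7 were lower and none higher in hypertrophic cells, and of 12 hypertrophic markers 5 were higher and none lower. COL10A1, the collagen of hypertrophic cartilage, differed by 0.66 ± 0.43 (adjusted p = 0.444). It read 11.99, 13.42, 14.14 and 14.07 on proliferative arrays 1 to 4 and 13.74 to 14.32 on hypertrophic arrays. MMP13 read 4.19, 5.88, 8.73 and 8.56 on proliferative arrays, while ANKH was level there, at 6.64 to 6.71. The proliferative arrays were thus not uniform in hypertrophic markers. Arrays 3 and 4 of a group were nearly identical. Over the 89 genes their values differed with an SD of 0.211 (proliferative) and 0.260 (hypertrophic), and any other 2 arrays of the same group with an SD of 0.373 to 0.944. They may not be separate samples, so calls are also given with arrays 3 and 4 of each group averaged into 1 sample. Whether each array had its own birds or pool is not in the labels, so the p-values rest on a spread between arrays that may be technical.

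Of the 89 genes, 6 were higher and 4 lower in hypertrophic cells and 79 did not pass. That is 11.2% of them, against 12.9% of all 13009 genes; by direction it is 6.74% against 7.34% higher and 4.49% against 5.6% lower. The groups did not overlap in 17 of the 89, or 19.1%, against 20.3% of all genes: higher in 10, against 10.6% of all genes, and lower in 7, against 9.67%. The family taken whole therefore changed about as often as other genes, and its median difference of -0.04 is near that of all genes, -0.01. The changes were carried by the adenylyl cyclase ADCY2, the phosphodiesterase PDE4D and the anchoring proteins AKAP12 and AKAP7, which fell, and by the G gamma subunits GNG2, GNG10 and GNG11, the cyclase ADCY9, RGS11 and the PKA subunit PRKAR2B, which rose. With arrays 3 and 4 averaged, 3 rose (GNG2, GNG10 and GNG11) and 3 fell (ADCY2, PDE4D and AKAP12), 6.74% of the 89, against 3.24% of all genes. Of these, GNG2 and PDE4D count by probe sets that their own differences helped to choose, as described below. With arrays centred on ribosomal protein genes, which moves the median of all genes by -0.15, 5 were higher and 9 lower, 15.7% against 16.5% of all genes. When 1 array was left out, 3 were higher without proliferative array 1, 3 or 4 or hypertrophic array 3, in each case 6.74% called in either direction, against 6.19% to 8.51% of all genes. Without hypertrophic array 1, 11 were higher and 7 lower, 20.2% against 19.2% of all genes. Of the 89 genes, 28 had both group means below the background level, and 1 of these, PRKAR2B, passed.

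**Figure D1:**
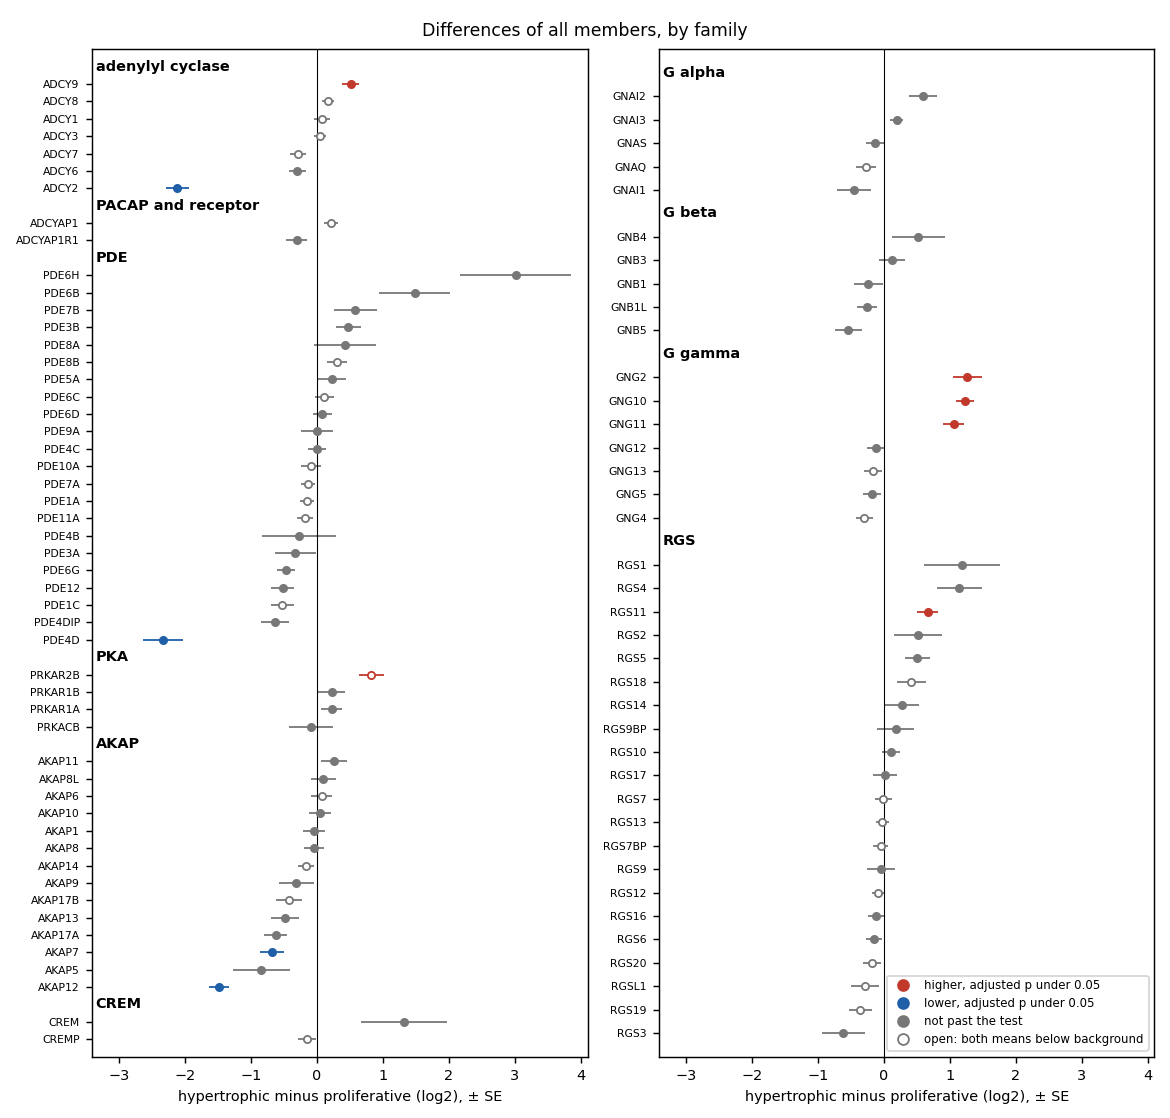
Difference between hypertrophic and proliferative cells for each of the 89 genes, in families, as log2 difference with its SE (n = 4 arrays per group). Red and blue points passed with adjusted p under 0.05, and open points have both group means below the background level. ADCY2 and PDE4D lie near -2, GNG2, GNG10 and GNG11 lie above 1, and PDE6H, the point farthest to the right, did not pass.

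Among the enzymes that make cyclic AMP, ADCY2 fell and ADCY9 rose. ADCY2 is a cyclase that calcium does not regulate and that G beta-gamma dimers can stimulate together with Gs. Its values were 8.69, 8.48, 8.00 and 7.90 on proliferative arrays 1 to 4 and 6.12, 6.25, 6.06 and 6.19 on hypertrophic arrays 1 to 4. Every proliferative array lay above every hypertrophic one, and the hypertrophic arrays were close together. On the log2 scale ADCY2 fell by 2.11 ± 0.18 (adjusted p = 4.89e-04), a 4.33-fold lower level, and passed in all 23 alternatives, with adjusted p = 0.00915 when arrays 3 and 4 were averaged. Its other probe set, with a hypertrophic mean below background, fell by at least 1.56 (estimate 1.84 ± 0.22).

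ADCY9, a widely expressed cyclase that responds poorly to forskolin, read 8.05, 8.06, 7.85 and 7.64 in proliferative and 8.24, 8.52, 8.38 and 8.52 in hypertrophic cells. The groups did not overlap, but their gap was 0.18. ADCY9 rose by 0.52 ± 0.13 (adjusted p = 0.0405), with adjusted p = 0.198 with arrays 3 and 4 averaged and 0.0962 with ribosomal centring. Leaving out arrays in turn, it passed without proliferative array 2 or hypertrophic array 1 and missed the threshold in the other 6 cases, where the adjusted p reached 0.113. Its dimmer probe set was close to level, at -0.18 ± 0.11, and did not pass.

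ADCY6, a cyclase that calcium inhibits, had values of 5.35, 5.55, 5.22 and 5.30 in proliferative and 5.19, 5.24, 4.90 and 4.92 in hypertrophic cells, which overlap. The difference, -0.29 ± 0.12, was not past the test (adjusted p = 0.202). ADCY1, ADCY3, ADCY7 and ADCY8 were below background in both groups, with differences from -0.29 to 0.17. Within each array, the ADCY2 value minus the ADCY9 value was 0.15 to 0.64 in proliferative and -2.34 to -2.12 in hypertrophic cells, a description of these 2 probe sets and not a ratio of transcripts.

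The PACAP gene ADCYAP1 was below background on every array, at 3.89 to 4.09 in proliferative and 4.09 to 4.38 in hypertrophic cells (adjusted p = 0.304). Its receptor gene ADCYAP1R1 had a difference of -0.30 ± 0.16, short of the threshold (adjusted p = 0.306).

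Of the 22 genes with a PDE symbol, 1 passed, or 4.55%, against 12.9% of all genes. It was PDE4D, a cyclic AMP-specific phosphodiesterase that rolipram inhibits. PDE4D read 7.47, 7.94, 7.94 and 7.74 in proliferative and 4.60, 5.24, 5.82 and 6.11 in hypertrophic cells. All 4 hypertrophic values were below all proliferative ones, and they were spread over 1.51 on the log2 scale. PDE4D fell by 2.33 ± 0.30 in its representing probe set (adjusted p = 0.00288), a 5.03-fold lower level there. It passed in all 23 alternatives (adjusted p = 0.0236 with arrays 3 and 4 averaged). The lowest hypertrophic array, 4.60, lies under the background level. On hypertrophic arrays alone the representing probe set was not the brightest, with a mean of 5.44 against 5.55 in another. It was the brightest over the 8 arrays through its proliferative values, so the fall itself took part in its choice. The other 3 probe sets of PDE4D fell too. The fall was 1.29 ± 0.21 in one, at least 0.29 (estimate 1.07 ± 0.26) in another, whose hypertrophic mean was below background, and 0.73 ± 0.13 in the last, with both means below background.

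PDE4B, which encodes another enzyme of that subfamily and is induced by cyclic AMP in many cells, had values of 8.36, 8.91, 9.73 and 9.50 in proliferative and 7.74, 7.86, 9.82 and 9.97 in hypertrophic cells. Arrays 3 and 4 were above arrays 1 and 2 in both groups, and the groups overlapped. Its difference was -0.28 ± 0.56 (adjusted p = 0.850). Within each array the PDE4D value minus the PDE4B value was -1.79 to -0.89 in proliferative and -3.998 to -2.62 in hypertrophic cells. These numbers follow from the values above and are no separate result, nor a ratio of transcripts. PDE4C differed by 0.00 ± 0.14.

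PDE5A, which breaks down cyclic GMP, read 7.06, 6.60, 6.75 and 6.54 in proliferative and 6.35, 6.92, 7.21 and 7.36 in hypertrophic cells, and its difference was 0.22 ± 0.22 (adjusted p = 0.642). PDE3B, an enzyme of cyclic AMP that cyclic GMP inhibits and that insulin activates in fat cells, differed by 0.48 ± 0.19, and PDE3A of the same subfamily by -0.33 ± 0.31, neither past the test (adjusted p = 0.165 and 0.620). PDE1A, PDE1C, PDE6C, PDE7A, PDE8B, PDE10A and PDE11A were below background in both groups.

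A pair of retinal phosphodiesterase genes had large differences that did not pass, and they were singled out after their values were seen. PDE6H encodes the inhibitory gamma subunit of the cone photoreceptor enzyme. Its values were 3.41, 3.70, 3.40 and 3.49 in proliferative and 3.97, 5.73, 8.18 and 8.16 in hypertrophic cells, so the proliferative arrays and hypertrophic array 1 were below background while hypertrophic arrays 3 and 4 were far above it. The difference was at least 1.75 when the proliferative arrays alone were set to the background level (estimate 3.01 ± 0.84, adjusted p = 0.0612), a bound that leaves out sampling error, and it passed without hypertrophic array 1 (adjusted p = 0.00260). PDE6B, the rod catalytic beta subunit, read 3.64, 3.28, 3.57 and 3.60 in proliferative and 3.55, 4.35, 6.37 and 5.75 in hypertrophic cells, and its hypertrophic arrays had the same pattern, 3 and 4 above 1 and 2. Computed in the same way, its bound was 0.25 (estimate 1.48 ± 0.54, adjusted p = 0.135, and 0.0154 without hypertrophic array 1). For both genes the fit without hypertrophic array 1 is one that called 19.2% of all genes. PDE6G, the rod gamma subunit, had a difference in the other direction, -0.47 ± 0.13 (adjusted p = 0.0651), with no overlap between groups and a second probe set at 0.09 ± 0.18.

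The PKA subunits gave 1 call, in a gene close to background. PRKAR2B, the type II beta regulatory subunit, had values of 3.92, 3.64, 3.69 and 3.79 in proliferative and 4.18, 4.29, 5.04 and 4.83 in hypertrophic cells. Only hypertrophic arrays 3 and 4 were above the background level, and the groups did not overlap. The difference of 0.83 ± 0.20 passed (adjusted p = 0.0334), and so did that of its second probe set, 0.53 ± 0.14 (adjusted p = 0.0496), but both group means of both probe sets were below background, so no fold is given. With arrays 3 and 4 averaged it did not pass (adjusted p = 0.173), and leaving out arrays in turn it passed without hypertrophic array 1 or 2 and in none of the other 6 cases (highest adjusted p 0.0970).

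PRKAR1A, the type I alpha regulatory subunit, read 10.73, 10.31, 11.01 and 10.76 in proliferative and 10.75, 10.88, 10.94 and 11.13 in hypertrophic cells, values that overlap. It differed by 0.22 ± 0.16 (adjusted p = 0.484), and PRKAR1B of the same type by 0.22 ± 0.21 (adjusted p = 0.609). The catalytic subunit gene PRKACB read 7.79, 7.35, 8.55 and 8.38 in proliferative and 7.25, 7.66, 8.42 and 8.39 in hypertrophic cells. Arrays 3 and 4 were higher than arrays 1 and 2 in both groups, by 0.90 and 0.95, and the difference between groups was -0.09 ± 0.34 (adjusted p = 0.929).

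Of the 14 AKAP genes 2 passed, or 14.3%, against 12.9% of all genes, and both fell. AKAP12, also called gravin, is a scaffold for PKA, protein kinase C and receptors at the plasma membrane. Its values were 9.09, 8.76, 8.74 and 8.36 in proliferative and 7.29, 7.16, 7.20 and 7.34 in hypertrophic cells. The hypertrophic arrays lay within 0.18 of each other and more than 1 below the lowest proliferative array. AKAP12 fell by 1.49 ± 0.15 (adjusted p = 0.00103), a 2.81-fold lower level, and passed in all 23 alternatives (adjusted p = 0.0116 with arrays 3 and 4 averaged). Of its other 4 probe sets 3 fell, by 1.72 ± 0.13, 1.08 ± 0.27 and 0.48 ± 0.12, the last with both means below background, and 1, below background as well, differed by 0.16 ± 0.10.

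AKAP7, a small membrane anchor that ties PKA to ion channels, read 9.75, 9.76, 9.41 and 9.35 in proliferative and 9.03, 9.26, 8.55 and 8.72 in hypertrophic cells, with no overlap and a gap of 0.10. It fell by 0.68 ± 0.18 (adjusted p = 0.0467), and its next brightest probe set fell by 0.79 ± 0.18. The other 3 probe sets differed by -0.08 ± 0.17, -0.38 ± 0.19 and -0.05 ± 0.09 and did not pass. AKAP7 did not pass when arrays 3 and 4 were averaged (adjusted p = 0.166). With arrays left out in turn it passed without hypertrophic array 1 or 2 and in none of the other 6 cases (highest adjusted p 0.120). AKAP17A, which works with splicing factors, differed by -0.62 ± 0.17 (adjusted p = 0.0599), and its second probe set passed, with a bound of -0.94 (estimate -1.17 ± 0.21, adjusted p = 0.0127); it was named after its values were seen.

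AKAP5, an anchor for PKA, protein kinase C and calcineurin, had values of 8.99, 8.56, 8.23 and 8.47 in proliferative and 8.87, 8.19, 6.86 and 6.97 in hypertrophic cells, with hypertrophic arrays 2, 3 and 4 under all proliferative ones, arrays 3 and 4 by more than 1. AKAP5 differed by -0.84 ± 0.43 between groups (adjusted p = 0.296). AKAP9, a centrosome and Golgi scaffold, differed by -0.31 ± 0.27 (adjusted p = 0.573), and its dimmer probe set by -1.33 ± 0.45 (adjusted p = 0.113). The remaining 9 AKAP genes had differences from -0.48 to 0.26 in their representing probe sets. For AKAP13, among them, 1 of 6 probe sets passed, with a difference of -0.40 ± 0.10 (adjusted p = 0.0447), and the other 5 did not.

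**Figure D2:**
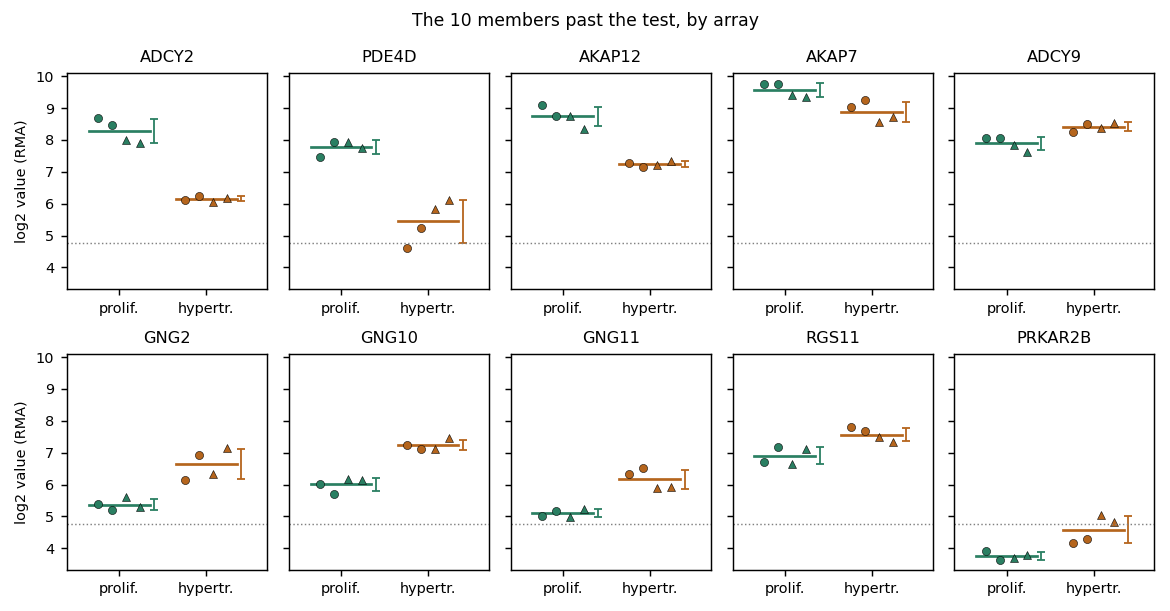
Log2 values on each array for the 10 genes past the test, proliferative in green and hypertrophic in brown. Circles are arrays 1 and 2, triangles arrays 3 and 4, lines the group means, bars the SD (n = 4) and the dotted line the background level of 4.75. The groups do not overlap in any of the 10, and PRKAR2B is near or under the dotted line.

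G gamma subunits form dimers with G beta subunits, and 3 of the 7 measured genes passed, each with a rise, where 7.34% of all genes rose. GNG2 counts among the 3 by only 1 of its 3 probe sets, which its hypertrophic values helped to choose, as described below. GNG10 had values of 6.02, 5.71, 6.16 and 6.14 in proliferative and 7.25, 7.12, 7.12 and 7.46 in hypertrophic cells, and the lowest hypertrophic array was 0.96 above the highest proliferative one. GNG10 rose by 1.23 ± 0.14 (adjusted p = 0.00145), a 2.34-fold higher level. GNG11 read 5.01, 5.17, 4.99 and 5.24 in proliferative and 6.32, 6.51, 5.89 and 5.93 in hypertrophic cells, and hypertrophic arrays 1 and 2 were the highest. It rose by 1.06 ± 0.16 (adjusted p = 0.00509), or 2.08-fold. Each of these genes has 1 probe set.

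GNG2 read 5.40, 5.19, 5.59 and 5.31 in proliferative and 6.14, 6.91, 6.34 and 7.15 in hypertrophic cells, again without overlap. In this probe set it rose by 1.26 ± 0.22 (adjusted p = 0.0105), or 2.40-fold. Its other probe sets differed by 0.17 ± 0.13 and -0.28 ± 0.10 and did not pass (adjusted p = 0.533 and 0.143). In the last of these the groups did not overlap either, with the hypertrophic arrays lower. On proliferative arrays alone the representing probe set had the lowest mean of the 3, 5.37 against 5.62 and 5.52. It was the brightest only through its hypertrophic values, so the rise itself took part in its choice. GNG2, GNG10 and GNG11 passed in all 8 fits that leave out 1 array and with arrays 3 and 4 averaged (adjusted p = 0.0429, 0.0177 and 0.0327). For GNG2 these fits reuse the probe set that the rise helped to choose. Passing them is no separate support for a rise of that gene and says nothing about its other probe sets. Of the 2 other G gamma genes above background, GNG5 differed by -0.18 ± 0.13 and GNG12 by -0.12 ± 0.13.

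In bulk samples, more cells of a type and more RNA per cell cannot be told apart. Of 13 endothelial markers 3 were higher (CDH5, TEK and VWF), none was lower and 10 did not pass. The differences of the 10 ran from -0.69 (FLI1) to 0.88 (TIE1). The endothelial cadherin CDH5, with the largest rise, had proliferative values of 3.93 to 5.66 and hypertrophic values of 7.51 to 8.29. The summed linear intensity of the 13 markers ran from 1182 to 1521 on proliferative and from 1409 to 1772 on hypertrophic arrays, which overlap. KDR and EMCN were below background in both groups. Of 10 leukocyte markers 2 were higher, LAPTM5 by 2.96 and CD74 by 1.665, and 1 was lower, CD3E, with a difference of -0.47. The differences of the 7 that did not pass ran from -0.18 (CD79B) to 1.84 (LCP1). Summed intensities were 308 to 407 on proliferative and 770 to 1508 on hypertrophic arrays, which do not overlap. Most of the hypertrophic sum is LAPTM5 and CD74, at 6.95 to 8.48 and 7.69 to 9.79 on the log2 scale. The sum therefore says little about the other leukocyte markers. The means of PTPRC, ITGB2 and IKZF1, general leukocyte genes, were below background in both groups, though ITGB2 read 5.30 on hypertrophic array 1. Of 6 adipocyte markers 2 were higher and 1 lower, of 10 osteoclast markers 2 and 1, of 7 fibroblast markers none and 1, and none of 6 osteoblast, 5 blood cell and 6 neural markers passed. The part of such cells in the G gamma values was not tested.

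No G alpha or G beta gene passed by its representing probe set, of 5 in each family. GNAS, which encodes the stimulatory G alpha subunit, read 10.73, 10.92, 10.50 and 10.42 in proliferative and 10.38, 10.65, 10.40 and 10.59 in hypertrophic cells, with the groups overlapping. Its difference was -0.14 ± 0.14 (adjusted p = 0.642), and its other 5 probe sets differed by -0.49 to 0.03. Of the inhibitory subunits, GNAI2 had values of 9.32, 8.82, 8.90 and 8.96 in proliferative and 9.11, 9.35, 9.87 and 10.05 in hypertrophic cells, with hypertrophic arrays 3 and 4 the highest. It differed by 0.60 ± 0.22 (adjusted p = 0.134) and passed without hypertrophic array 1 (adjusted p = 0.0349), in a fit that called 19.2% of all genes. GNAI1 and GNAI3 differed by -0.45 ± 0.25 and 0.20 ± 0.10. The other probe sets of GNAI1 differed by -0.97 ± 0.28 and -1.14 ± 0.48 and did not pass (adjusted p = 0.0723 and 0.196).

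GNB5, the G beta protein that pairs with RGS proteins of the R7 group in place of a gamma subunit, read 8.10, 8.33, 8.14 and 8.06 in proliferative and 7.78, 8.10, 7.05 and 7.57 in hypertrophic cells. The groups overlapped, and it differed by -0.53 ± 0.20 (adjusted p = 0.156), whereas its dimmer probe set fell by 0.65 ± 0.13 (adjusted p = 0.0160). GNB3 differed by 0.13 ± 0.20, but its dimmer probe set fell by 0.66 ± 0.15 (adjusted p = 0.0324). GNB1, a widely expressed G beta subunit, differed by -0.23 ± 0.22.

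Of 21 genes with an RGS symbol 1 passed, or 4.76%, against 12.9% of all genes. RGS11 is a member of the R7 group, whose proteins bind GNB5. Its values were 6.69, 7.17, 6.65 and 7.10 in proliferative and 7.80, 7.67, 7.48 and 7.33 in hypertrophic cells, which do not overlap but come within 0.16 of each other. RGS11 rose by 0.67 ± 0.16 (adjusted p = 0.0361). It did not pass with arrays 3 and 4 averaged or with ribosomal centring (adjusted p = 0.104 and 0.101), and with arrays left out in turn it passed without proliferative array 2 or hypertrophic array 4 and in none of the other 6 cases (highest adjusted p 0.107). The other R7 genes, RGS6, RGS7 and RGS9, differed by -0.15, -0.00 and -0.05, with RGS7 below background in both groups.

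RGS2, an inhibitor of Gq signalling that many cells induce in response to cyclic AMP, read 10.31, 10.38, 10.77 and 10.80 in proliferative and 9.89, 11.74, 11.34 and 11.37 in hypertrophic cells. Hypertrophic array 1 was the lowest of the 8 and the other 3 hypertrophic arrays were the highest. The difference was 0.52 ± 0.36 (adjusted p = 0.469). RGS2 passed without hypertrophic array 1, its lowest, in a fit that called 19.2% of all genes. RGS5, an RGS protein abundant in pericytes, read 5.97, 6.34, 6.04 and 6.36 in proliferative and 6.94, 6.36, 7.06 and 6.37 in hypertrophic cells, which touch but do not overlap. It differed by 0.51 ± 0.19 (adjusted p = 0.146), and its other probe sets by 0.21 and -0.30. Of 9 pericyte and smooth muscle markers 1 was higher, MYH11, by at least 2.82 (estimate 3.25 ± 0.77). KCNJ8 was lower, with a bound of -0.98 (estimate -1.32 ± 0.31). The differences of the 7 others ran from -0.62 (ABCC9) to 0.97 (PDGFRB), and ACTA2 and ABCC9 were below background in both groups. Their summed intensity was 3004 to 4674 on proliferative and 3422 to 3916 on hypertrophic arrays. Most of that sum is CSPG4, at 11.07 to 11.88 and 11.23 to 11.54 on the log2 scale, so it says little about the other markers. The part of pericytes in the RGS5 values was not tested.

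RGS4, a regulator of Gi and Gq signals, had values of 5.34, 5.58, 5.39 and 5.55 in proliferative and 7.73, 5.92, 6.24 and 6.54 in hypertrophic cells, without overlap and with array 1 the highest. RGS4 differed by 1.15 ± 0.34, which missed the threshold (adjusted p = 0.0719). Without hypertrophic array 1 its adjusted p was 0.0141, in a fit that called 19.2% of all genes. RGS1, known from lymphocytes, read 5.46, 4.99, 5.23 and 4.93 in proliferative and 5.49, 4.91, 7.83 and 7.13 in hypertrophic cells, with only hypertrophic arrays 3 and 4 raised, and differed by 1.19 ± 0.57 (adjusted p = 0.266). RGS3, which has 8 probe sets, differed by -0.62 ± 0.33 and its others by -0.70 to 0.47, none past the test. RGS1, RGS3 and RGS4 were chosen for naming with their values in view, as were AKAP5 and PDE8A. In the RefSeq gene table of assembly GRCg7b, RGS4, RGS2, RGS13, RGS1, RGS18 and RGS5 follow each other on chromosome 8 with 1 other coding gene, between RGS1 and RGS18. Their differences in that order were 1.15, 0.52, -0.02, 1.19, 0.42 and 0.51, with RGS13 and RGS18 below background in both groups and none past the test.

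**Figure D3:**
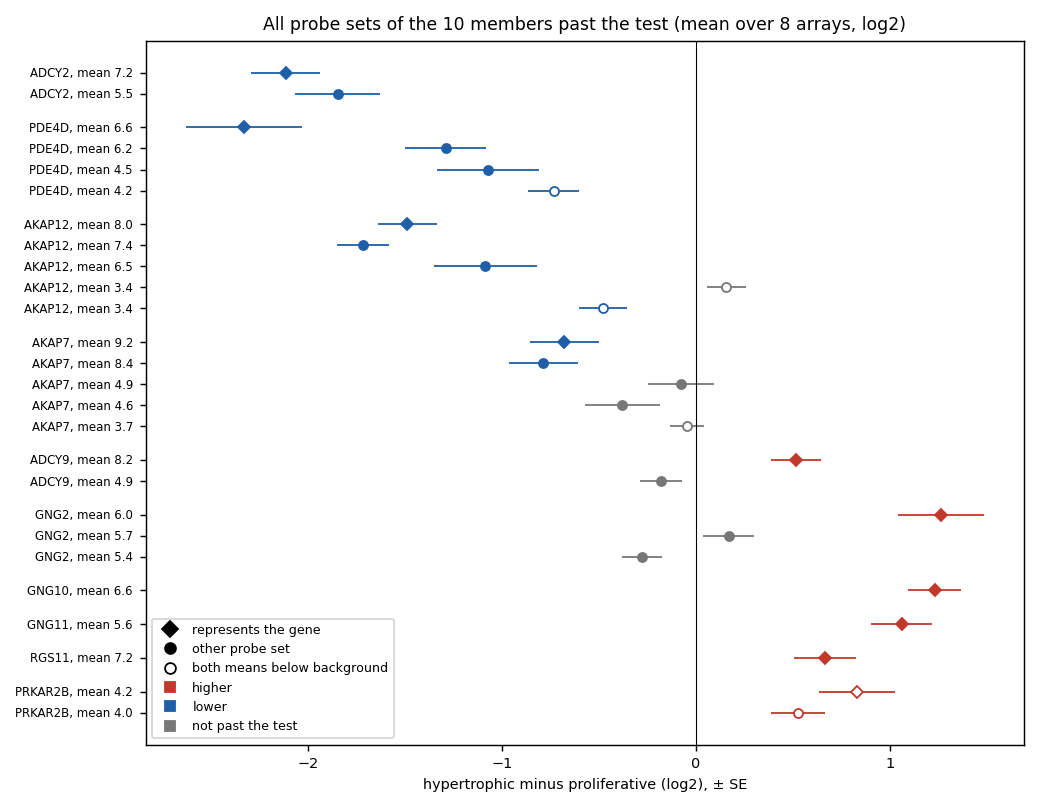
Difference and SE for every probe set of the 10 genes past the test, on the log2 scale, ordered within a gene by the mean over the 8 arrays. Diamonds mark the probe set that represents the gene, and open symbols have both group means below background. All 4 probe sets of PDE4D and both of ADCY2 lie to the left of zero, while the other probe sets of GNG2 and ADCY9 lie near zero.

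CREM encodes activators and, through an internal promoter, the repressor ICER that cyclic AMP induces. Its values were 8.07, 7.58, 8.34 and 8.16 in proliferative and 7.60, 8.51, 10.72 and 10.62 in hypertrophic cells. Hypertrophic arrays 3 and 4 were more than 2 above every other array, and array 1 lay within the proliferative range. Between groups CREM differed by 1.32 ± 0.65 (adjusted p = 0.279), and its other probe sets differed by 1.48 ± 0.84 and 0.73 ± 0.33. Without hypertrophic array 1 the adjusted p of CREM was 0.0397, in a fit that called 19.2% of all genes.

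CREM was not alone in this. In hypertrophic cells the mean of arrays 3 and 4 differed from that of arrays 1 and 2 by more than 1 on the log2 scale in 10 of the 89 genes, or 11.2%, against 9.49% of all genes; in proliferative cells it did so in none of the 89 and in 1.91% of all genes. The 10 were PDE6H, CREM, RGS1, PDE6B, PDE4B, PDE8A, GNB4, PDE7B and PDE4D, which were higher on arrays 3 and 4, by 3.32 down to 1.04, and AKAP5, which was 1.62 lower. PDE8A, a high-affinity cyclic AMP phosphodiesterase, read 6.42, 6.79, 6.93 and 6.74 in proliferative and 6.09, 6.29, 8.12 and 8.07 in hypertrophic cells. PDE7B, another such enzyme, read 6.06, 6.33, 5.71 and 5.41 in proliferative and 5.60, 6.26, 6.97 and 6.99 in hypertrophic cells, so in both genes hypertrophic arrays 3 and 4 were the highest of the 8. The actin 3′ value minus the 5′ value, which is large where RNA is short, was 1.58 and 1.35 on hypertrophic arrays 1 and 2 and 0.86 and 1.06 on arrays 3 and 4. On proliferative arrays it was 1.90 and 1.80, then 0.97 and 0.86. For EF1a the measure was 0.41, 0.38, 0.18 and 0.24 on hypertrophic arrays 1 to 4 and 0.32, 0.40, 0.19 and 0.23 on proliferative arrays. For GAPDH it was negative on every array, at -0.06, -0.37, -0.435 and -0.45 on hypertrophic and -0.53, -0.34, -0.47 and -0.49 on proliferative arrays. The part of RNA length in the differences between arrays was not tested. Of the 10, PDE4D passed, and the differences of the other 9 between the stages depend on which hypertrophic arrays are taken.

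**Figure D4:**
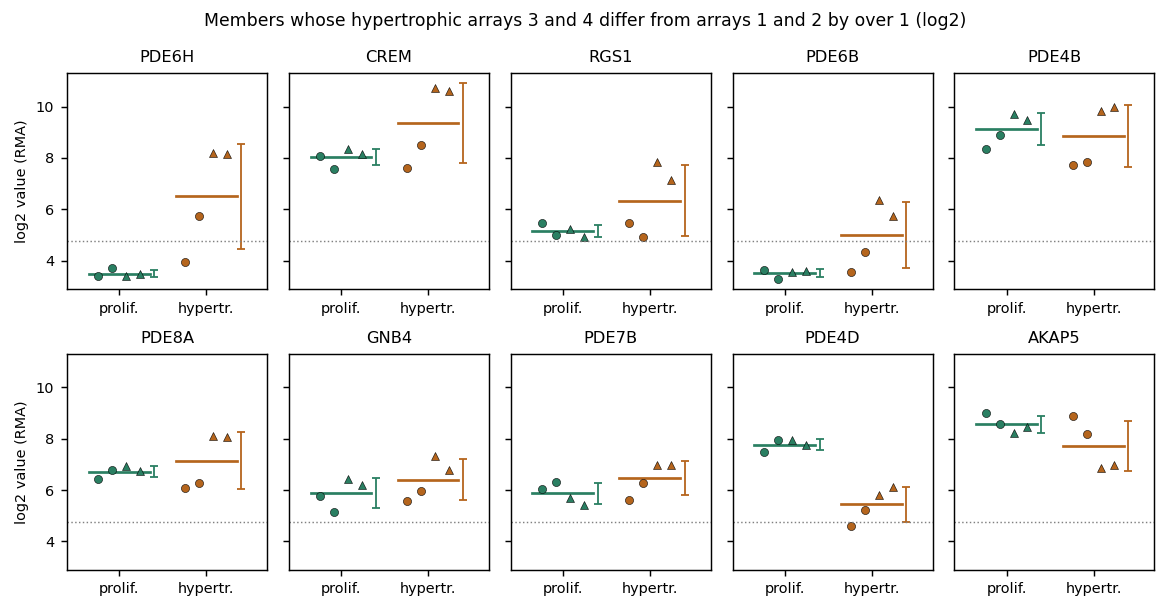
Log2 values on each array for the 10 genes whose hypertrophic arrays 3 and 4 differ from arrays 1 and 2 by more than 1. Circles are arrays 1 and 2, triangles arrays 3 and 4, lines the means, bars the SD (n = 4) and the dotted line the background level. In PDE6H, CREM, RGS1 and PDE6B the triangles of the hypertrophic group stand above all other points, and in AKAP5 they stand below.

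Genes that act with these families were taken from 7 lists. Of 179 measured genes outside the 89, 15 were higher, 9 lower and 155 did not pass, 13.4% called, close to the 12.9% of all genes. With arrays 3 and 4 averaged 2 were higher, RAMP2 and PPP3CA, and 2 lower, PRKG1 and NFATC2. Centring on ribosomal protein genes gave 12 higher and 19 lower. Without 1 array the higher count was 5 without proliferative array 3 or 4, 7 without hypertrophic array 2, 3 or 4, and 10 to 19 otherwise; the lower count was 5 without proliferative array 1 and 6 to 12 otherwise. The share of all genes called in these fits was 6.19% to 10.1%, and 19.2% without hypertrophic array 1.

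Among 43 ligands and receptors that act on cyclic AMP, 6 rose and 1 fell, or 16.3%, against 12.9% of all genes. RAMP2, the partner that makes the calcitonin receptor-like receptor respond to adrenomedullin, read 5.13, 5.78, 5.39 and 5.51 in proliferative and 8.01, 9.24, 9.03 and 9.11 in hypertrophic cells. It rose by 3.40 ± 0.27 (adjusted p = 3.87e-04), and every hypertrophic array was more than 2 above every proliferative one. CALCRL, the gene of that receptor and named for this reason, had means of 3.34 in proliferative and 3.54 in hypertrophic cells. Both means were below background, and its difference of 0.19 ± 0.15 did not pass (adjusted p = 0.531). ADM, the adrenomedullin gene, read 5.61, 6.15, 5.27 and 5.12 in proliferative and 6.53, 7.91, 9.38 and 9.48 in hypertrophic cells, where arrays 3 and 4 were the highest, and rose by 2.79 ± 0.61 (adjusted p = 0.0244; 0.154 with arrays 3 and 4 averaged). The lysophosphatidic acid receptor LPAR6 and ADGRG6, an adhesion receptor that raises cyclic AMP, had proliferative means below background and rose by at least 2.58 and 1.90 (estimates 2.74 ± 0.45 and 2.14 ± 0.48). The gene that fell, FSHR, the follicle-stimulating hormone receptor, was named for being alone: its difference was -1.95 ± 0.47 (adjusted p = 0.0350). RAMP2 and ADM are also known from blood vessels, whose endothelial markers are given above, and the part of such cells was not tested.

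Of 30 further G alpha subunits and regulators 5 rose and 1 fell, or 20%, against 12.9% of all genes. GNA11, an alpha subunit of the Gq class, rose by 1.43 ± 0.25 (adjusted p = 0.0109), with 7.83 to 8.63 on proliferative and 9.25 to 10.14 on hypertrophic arrays. The receptor kinase GRK5 rose by at least 0.79 (estimate 1.37 ± 0.34), and SNX25, a sorting nexin with an RGS domain, by 1.32 ± 0.27. GPSM1, which binds inhibitory G alpha subunits, fell by 0.80 ± 0.15, and a second probe set fell by 1.22 ± 0.25, but its dimmest one rose by 1.09 ± 0.19 (adjusted p = 0.0103), so the gene's direction is uncertain.

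In the phospholipase C and calcium branch 1 of 32 genes rose and 3 fell, or 12.5%, against 12.9% of all genes. PPP3CA, the catalytic subunit of calcineurin, rose by 1.00 ± 0.10 (adjusted p = 0.00106), at 10.74 to 11.02 on proliferative and 11.73 to 11.92 on hypertrophic arrays. The calcineurin-regulated factors NFATC2 and NFATC1 fell by 1.75 ± 0.31 and 0.83 ± 0.15, and the kinase PRKCB fell by 1.46 ± 0.33. The cyclic GMP branch had 1 rise and 1 fall among 16 genes, also 12.5%. The natriuretic peptide clearance receptor NPR3 rose by at least 0.77 (estimate 1.23 ± 0.22), and PRKG1, cyclic GMP-dependent kinase I, fell by 0.94 ± 0.17 (adjusted p = 0.0133).

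Downstream of PKA, 1 of 17 genes of the CREB family and its coactivators passed. ATF4, a stress-induced factor of the wider family, fell by 0.67 ± 0.13 (adjusted p = 0.0162). The differences of the 17 ran from -2.625, in a gene that did not pass, to 0.44. Groups did not overlap in 4 of the 17, all lower in hypertrophic cells, or 23.5%. Of all genes 20.3% did not overlap, 9.67% with hypertrophic cells lower. Of 20 genes known to respond to cyclic AMP, CITED2 rose by at least 0.77 (estimate 1.08 ± 0.21), NPTX2 fell by 0.64 ± 0.13 and 18 did not pass. Among 21 PKA inhibitors, Epac genes and other effectors, 19 did not pass. The GTPase RAP1B, a target of Epac, rose by 0.97 ± 0.23, and GSKIP, which binds PKA and a glycogen synthase kinase, fell by 0.55 ± 0.11. In the order given, these lists had 5.88%, 10% and 9.52% called, against 12.9% of all genes.

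**Figure D5:**
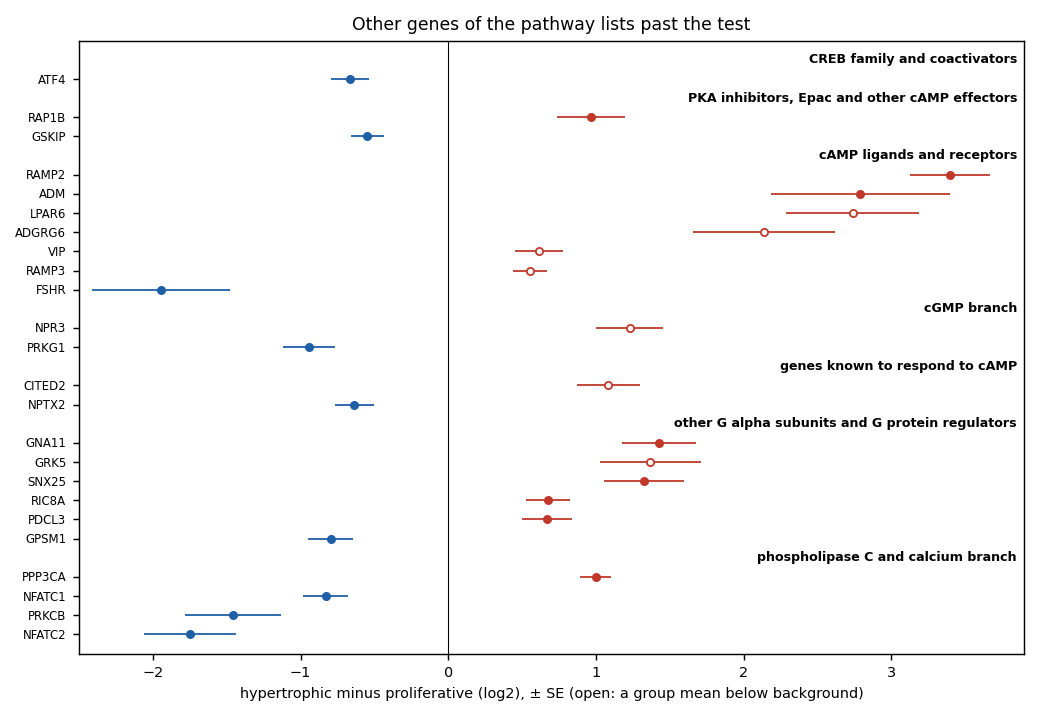
The 24 genes of the 7 pathway lists past the test, as log2 difference between hypertrophic and proliferative cells with its SE (n = 4 arrays per group), grouped by list. Red points are higher and blue points lower in hypertrophic cells, and open points have a group mean below background. RAMP2 and ADM lie farthest to the right among the points with both means above background, and FSHR and NFATC2 farthest to the left.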

How the data were processed

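RNA of 4 arrays of proliferative and 4 of hypertrophic chick chondrocytes was measured on 1-colour Affymetrix arrays with biotin label, per the labels' protocols. Per the submitters' processing notes the authors used RMA, and the deposited values are on the log2 scale; the software behind them is not given in the sources used here, nor its version. RMA normalises arrays to one distribution and compresses differences of dim probe sets. Arrays have no depth, and their number limits the precision.

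Of 38535 rows, 96 controls were left out. Of 38439 probe sets, 27168 have 1 symbol in the platform annotation, 177 several and 11094 none; symbols were updated by gene identifier from RefSeq (GRCg7b), which changed none of the 89 genes, and 4 of them (RGSL1, PDE12, AKAP8 and CREMP) kept the annotation's symbol. The test was the two-sided one of limma 3.58.1 (lmFit, then eBayes; R 4.3.3) over all probe sets, without covariates and with Benjamini-Hochberg adjustment. On simulated data of 38439 probe sets for this comparison, the test recovered 12%, 62%, 84% and 94% of changes of 0.5, 1, 2 and 3 on the log2 scale, with 11 false calls among 137. The simulated noise was independent between arrays, and 50 probe sets were changed per size. In the data arrays 3 and 4 are nearly identical and 3368 probe sets passed, so these rates need not carry over.

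Values by array are given for each gene past the test, for the gene with the smallest p of a family with none, and for a set list of core genes. The pathway lists name up to 4 genes past the test each. The members and lists were chosen with earlier results of these data known. Alternatives varied normalisation, filter, variance model, weights, blocks, arrays, probe set and minimum change. Same-numbered arrays of the groups did not deviate together in all numbers (r = -0.00 to 0.35 over 5344 bright probe sets), so the number was not taken as a pairing. Proliferative array 1 had r = 0.35 and 0.35 with hypertrophic arrays 1 and 2, and -0.45 and -0.32 with 3 and 4. For proliferative array 3 these were -0.24, -0.24, 0.31 and 0.22. Array 2 had -0.07 to 0.12 and array 4 -0.18 to 0.25. A block of arrays 1 and 2 against 3 and 4 was left out of the main test and fitted as an alternative.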

Additional observations from a re-analysis of the deposited data

Results flagged for a closer look

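In PDE6G, proliferative array 1 read 6.56 and the nearest other proliferative array 6.40, a gap of 0.957 of the group's range. In RAMP2, hypertrophic array 1 read 8.01, and the next array 9.03, a gap of 0.831 of the range. Both are above the 95% critical value of Dixon's test. These stood out among 100 sets of 4 arrays, fewer than the 1 in 20 that chance gives.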

How the results depend on the processing

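The main counts were 6 of the 89 genes higher and 4 lower, and 15 other pathway genes higher and 9 lower. In the same order they were 14, 11, 27 and 17 with array weights, 3, 3, 2 and 2 with arrays 3 and 4 averaged, 2, 3, 4 and 8 with arrays 1 and 2 alone, 19, 14, 39 and 24 with arrays 3 and 4 alone, 8, 7, 19 and 19 with arrays 1 and 2 against 3 and 4 as a block, 5, 9, 12 and 19 with ribosomal centring, and 1, 3, 3 and 0 against a minimum change of 0.5. The share of the 89 called in these settings, beside that of all genes, was 28.1% and 28.2%, 6.74% and 3.24%, 5.62% and 4.51%, 37.1% and 35.1%, 16.9% and 20.1%, 15.7% and 16.5%, and 4.49% and 2.22%. The last 0 is of limma's treat; the ordinary test of no change called 9. The mean of all probe sets gave 16 other pathway genes lower. Leaving out 1 array gave 3 to 11 of the 89 genes higher, 3 to 7 lower, 5 to 19 other pathway genes higher and 5 to 12 lower. With the replicate number as a block 3 of the 89 genes were higher and 4 lower, with 13 and 13 other pathway genes, and ADCY9, PRKAR2B and RGS11 had adjusted p = 0.0875, 0.0520 and 0.0645. Arrays 3 and 4 are nearly identical, so the test on them alone has a small spread.

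Among single-gene values under the alternatives, 932 kept their direction and side of the threshold, 50 came to pass, 151 no longer passed and 14 turned direction. The turns were in genes that did not pass: PDE4B (0.20 with array weights, 0.28 with arrays 3 and 4 alone, -0.651 to 0.0928 without 1 array), PRKACB (0.0335 with array weights, -0.310 to 0.141 without 1 array), PDE5A (-0.19 with arrays 1 and 2 alone, -0.0253 with the mean of all probe sets), GNAS (0.0352 with arrays 3 and 4 alone), and, with arrays 1 and 2 alone, RGS1 (-0.0235) and PDE8A (-0.42). Signal over background limits the 28 genes below it in both groups.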
